A study of Mus musculus with 10 samples.

Results

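The genes that hepatocytes use to make plasma proteins and to break down amino acids and build glucose were measured in cells sorted as reactive cholangiocytes, the epithelial cells of bile ducts, which proliferate after injury. The set holds 45 genes, picked by their symbols from the 49568 in the table: 28 for secreted plasma proteins, 15 for enzymes of amino acid and sugar metabolism, and 2 for subunits of the asialoglycoprotein receptor, a hepatocyte surface protein. All 45 were among the 14870 genes tested, which had a mean of 10 or more normalized counts. RNA came from 5 *Smad4del* mice and 5 *Ctl* mice, 1 sample per mouse, all on a diet with 0.1% DDC for 2 weeks, which injures bile ducts through porphyrin plugs. By the labels the first cohort was *Smad4fl/fl* and the second *Smad4wt/wt*. By the methods, deletion was driven by *Alb-Cre*, in which regulatory DNA of the albumin gene drives Cre in the liver, and *Ctl* mice lacked it, so Cre differs between the cohorts too and its effect was not tested. The strains were of mixed genetic background. Age, sex and litter are not in the labels, which also carry a cell line tag and a culture protocol although the methods describe sorted cells. Livers were digested, hepatocytes were pelleted by slow spins, and EPCAM+/CD45-/TER119- cells were collected by flow sorting.

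Hepatocytes secrete most of the proteins of blood plasma: albumin and other carriers, the apolipoproteins that package lipids, fibrinogen and other clotting factors, and protease inhibitors. The enzymes studied here break down tyrosine, tryptophan, histidine and serine, run steps of glucose synthesis and turn methionine over through its methyl donor form. Several of these enzymes are zonated in the liver lobule, with *Hal*, *Sds* and *Pck1* near the portal vein and *Glul* near the central vein. Hepatocytes and cholangiocytes descend from the same embryonic progenitors and HNF4A is a main regulator of hepatocytes.

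Each *Smad4del* mouse gave 16734672 to 19710560 reads on genes and each *Ctl* mouse 16249719 to 21277339. The deleted gene had 812, 1031, 687, 1011 and 846 normalized counts in *Smad4del* mice and 3058, 3714, 3584, 2969 and 3619 in *Ctl* mice, a difference of -1.96 on the log2 scale (limma, adjusted p = 1.09e-05). In this and all later lists of single values, *Smad4del* mice stand in the order A5216, A5217, A5218, A5447 and A5624, and *Ctl* mice in the order A5215, A5219, A5221, A5626 and A5628. The sorted cells carried the label's markers: the 18 cholangiocyte markers were above 0 in all 10 mice and took 4.02% to 4.82% of the counts in *Smad4del* mice and 2.70% to 4.04% in *Ctl* mice. Markers of cells outside the gate were present too: 13 of 14 endothelial markers passed the test as lower in *Smad4del* mice (9 to 13 when each mouse was left out in turn) and the mean log2 level of 16 macrophage and leukocyte markers was 6.94 to 11.62, against 8.77 to 13.56 in *Ctl* mice, ranges that overlap. *Xist*, transcribed from the silent X chromosome of females, had 889 counts in *Smad4del* mouse A5447 and 769 and 823 in *Ctl* mice A5221 and A5628, and at most 1.70 in each of the other 7. In bulk samples, fewer cells of a type and less RNA per cell cannot be told apart.

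Only 2 of the 45 genes passed the test between the cohorts, *Ambp* among the plasma protein genes and *Rgn* among the enzyme genes, both higher in *Smad4del* mice. The test was limma on log2(normalized count + 1), with Benjamini-Hochberg adjusted p-values under 0.05 called, over all 14870 genes. Of all genes, 2.43% were called higher and 4.69% lower, and 0 of the 45 genes were called lower by limma or edgeR and 1 by DESeq2. At an unadjusted p under 0.05, 12 of the 45 were higher and 2 lower, beside 12.3% and 15.1% of all genes; the higher ones were 8 of 15 enzyme genes and 4 of 28 plasma protein genes, and the lower ones, *Apoe* and *Itih3*, were plasma protein genes. Below the threshold the 2 kinds of gene lay differently: 16 of 28 plasma protein genes and 13 of 15 enzyme genes had a log2 fold change above 0, beside 49.4% of all genes. The median log2 fold change was 0.03 for plasma protein genes, with a range of -1.11 for *Apoe* to 0.75 for *Apoc3*, and 0.84 for enzyme genes, with a range of -0.34 for *Hal* to 1.68 for *Rgn*. Over all genes it was -0.005. The enzyme genes share mice and so are not independent of each other, and no test over the list was made.

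**Figure D1:**
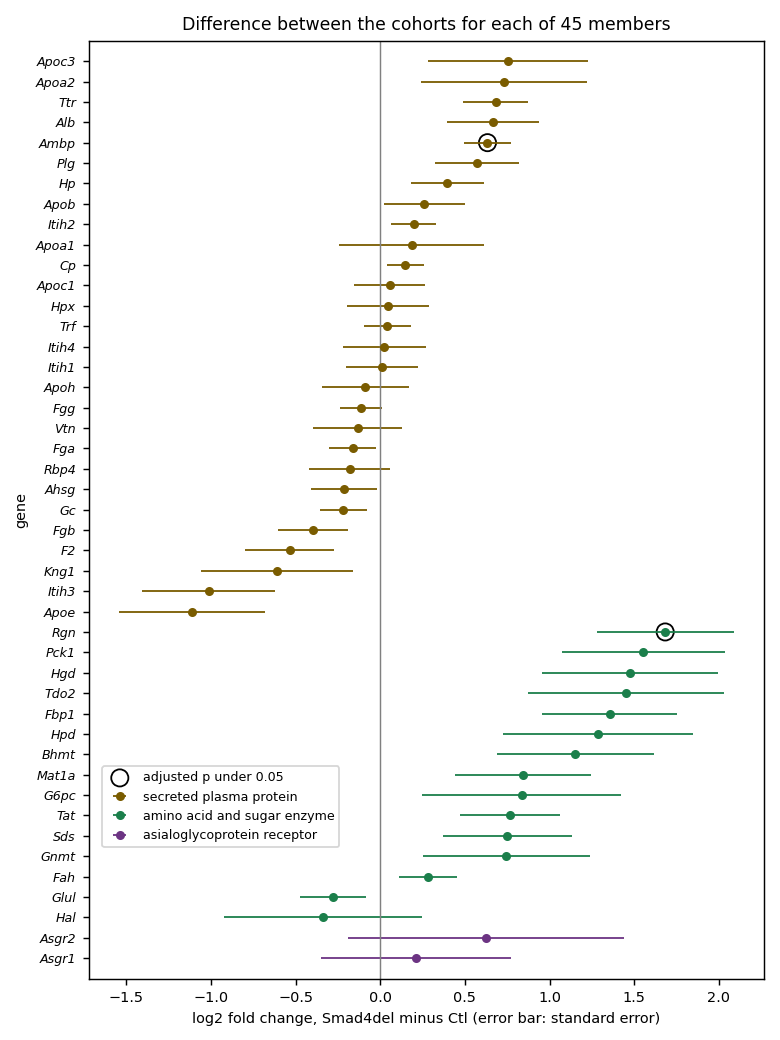
Log2 fold change of *Smad4del* over *Ctl* mice (x axis) with its standard error for each of the 45 genes (y axis), in brown for plasma protein genes, green for enzyme genes and purple for receptor genes; rings mark an adjusted p under 0.05 with limma. The brown points lie on both sides of 0, with *Apoe* lowest at -1.11, and 13 of the 15 green points lie above 0, with *Rgn* highest at 1.68.

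The promoters of 4 genes are shown because they stand for the contrast: *Ambp*, the plasma protein gene that was called, *Alb*, which names the liver's main secreted protein, and *Pck1* and *Hgd*, the enzyme genes with the largest log2 fold changes after *Rgn*. Each window runs from 250 bases before to 50 bases after a RefSeq start site on GRCm38.p6, 5′ to 3′, with matches to the searched letters in capitals. RefSeq windows matched 35 of the 45 genes.
Ambp chr4:63154123-63154422 (minus strand): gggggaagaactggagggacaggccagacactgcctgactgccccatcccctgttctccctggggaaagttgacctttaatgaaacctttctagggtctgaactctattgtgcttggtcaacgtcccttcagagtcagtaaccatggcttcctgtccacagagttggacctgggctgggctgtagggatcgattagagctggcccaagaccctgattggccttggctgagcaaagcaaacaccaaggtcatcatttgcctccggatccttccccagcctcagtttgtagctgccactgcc
Alb chr5:90460620-90460919 (plus strand): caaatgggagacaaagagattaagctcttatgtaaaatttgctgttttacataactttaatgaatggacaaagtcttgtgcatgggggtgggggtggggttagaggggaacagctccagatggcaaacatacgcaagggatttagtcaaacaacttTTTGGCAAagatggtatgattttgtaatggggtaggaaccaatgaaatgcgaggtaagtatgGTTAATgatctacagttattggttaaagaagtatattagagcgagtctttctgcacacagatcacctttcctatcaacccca
Pck1 chr2:173152823-173153122 (plus strand): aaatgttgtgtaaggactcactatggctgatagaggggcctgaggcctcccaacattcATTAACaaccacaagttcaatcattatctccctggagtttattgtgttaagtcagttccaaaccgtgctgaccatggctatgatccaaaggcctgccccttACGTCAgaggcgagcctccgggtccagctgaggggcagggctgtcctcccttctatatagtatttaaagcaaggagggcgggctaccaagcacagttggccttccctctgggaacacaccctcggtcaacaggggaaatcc
Hgd chr16:37579903-37580202 (plus strand): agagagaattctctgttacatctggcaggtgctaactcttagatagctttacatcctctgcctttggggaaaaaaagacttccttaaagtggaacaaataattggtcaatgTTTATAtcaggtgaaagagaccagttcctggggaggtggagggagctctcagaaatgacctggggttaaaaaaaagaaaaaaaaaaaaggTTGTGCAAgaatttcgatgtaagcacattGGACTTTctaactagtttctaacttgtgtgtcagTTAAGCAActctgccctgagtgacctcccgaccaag
The letters searched on both strands were TATAAA (core promoter box), GTTAAT (HNF1), AAAGTCC (HNF4), TTGCNNAA (C/EBP), ACGTCA (cAMP response element) and, for SMAD proteins, GTCTAG. A GC-rich box that SMAD proteins also bind, GGCGCC, was searched too. The *Alb* window held a C/EBP match at position -94 and an HNF1 match at -32, counted from the start site as 0. The *Pck1* window held an HNF1 match at -192 and a cAMP response element match at -91. In the *Hgd* window, TATAAA matched at -139, far from the usual place of such a box, and C/EBP at -49 and HNF4 at -20, with a further C/EBP match after the start. The *Ambp* window held none of these letters. None of the printed matches overlap. HNF1 letters were found in 8 of 21 plasma protein windows, 2 of 12 enzyme windows and 7.2% of 27025 windows of the genome, and C/EBP letters in 7, 2 and 10.75%. TATAAA was in 5 plasma protein and 4 enzyme windows and in 14.2% of all windows, HNF4 letters in 0, 1 and 4.25%, and cAMP response element letters in 0, 1 (*Pck1*) and 7.64%. Of the letters for SMAD proteins, GTCTAG was in 1 plasma protein window (*Ahsg*), 0 enzyme windows and 8.43% of all windows, and GGCGCC in 0, 1 (*Gnmt*) and 11.96%. A match describes the letters only.

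Carriers and acute-phase proteins gave the one call among the plasma protein genes. *Ambp* encodes a precursor that is cut into alpha-1-microglobulin, a heme and radical scavenger, and bikunin, a protease inhibitor. It had 26154, 33965, 34136, 24815 and 26009.9 normalized counts in *Smad4del* mice and 14738, 22838, 16785, 19296 and 19986 in *Ctl* mice. All 5 *Smad4del* mice lay above all 5 *Ctl* mice, as in 3.50% of all genes. The mean was 29016 ± 4625 in *Smad4del* mice and 18729 ± 3102 in *Ctl* mice (SD, n = 5 each), a log2 fold change of 0.63 ± 0.14 (SE), adjusted p = 0.0201 with limma. The exact two-sided permutation test gave p = 0.00794, the smallest that 5 mice against 5 allow. Every gene whose cohorts do not overlap gets this value, so it only restates the lack of overlap. The call was lost without *Smad4del* mouse A5217 (0.57, adjusted p = 0.0576), without A5218 (0.57, adjusted p = 0.0546) or without *Ctl* mouse A5221 (0.60, adjusted p = 0.0525), in each case with limma.

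*Alb*, the gene of albumin, had 28763, 44417, 41864, 16700.4 and 25816 normalized counts in *Smad4del* mice and 18282, 27689.7, 12200.2, 22170.4 and 16752 in *Ctl* mice. Mice A5217 and A5218, followed by A5216, lay above the highest *Ctl* mouse, A5219, but *Smad4del* mouse A5447 lay below all *Ctl* mice but A5221, so the cohorts overlapped. The log2 fold change was 0.67 ± 0.27 (SE), adjusted p = 0.143 with limma. *Ttr*, which encodes the thyroxine and retinol carrier transthyretin, had 6093, 8381, 10206, 4543 and 6631 normalized counts in *Smad4del* mice and 3630.0, 5132, 3803, 4810.0 and 4343 in *Ctl* mice. Here 4 *Smad4del* mice were above every *Ctl* mouse and A5447 was among them, with a log2 fold change of 0.68 ± 0.19 (SE), adjusted p = 0.0516. *Gc*, the vitamin D-binding protein, had 37892, 42943, 44461, 42281 and 40926 normalized counts in *Smad4del* mice and 33447, 55488, 47773, 51872 and 57913 in *Ctl* mice. The order was the other way, 4 *Ctl* mice lying above every *Smad4del* mouse and *Ctl* mouse A5215 below them all, and the log2 fold change was -0.22 ± 0.14 (SE), adjusted p = 0.329.

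*Cp*, the copper-carrying ferroxidase ceruloplasmin, had 62840.0, 64531, 64676, 75852 and 71823 normalized counts in *Smad4del* mice and 51388, 64244, 56744, 63080.3 and 72636 in *Ctl* mice. It was the steadiest of the 45 genes, with a ratio of 1.48 between the highest and the lowest mouse, and the cohorts overlapped (log2 fold change 0.15 ± 0.11 (SE), adjusted p = 0.407). *Hp*, which encodes haptoglobin, the scavenger of free hemoglobin, had 17602, 20313, 9985, 21363 and 11979.9 normalized counts in *Smad4del* mice and 11527, 14253, 8867, 11078 and 14296 in *Ctl* mice. Mice A5216, A5217 and A5447 lay above all *Ctl* mice and the other two *Smad4del* mice among them (0.40 ± 0.21 (SE), adjusted p = 0.253). *Ahsg*, the mineral-binding fetuin A, had 6709.7, 8216, 6650.1, 4015 and 5625.6 normalized counts in *Smad4del* mice and 7924, 6507, 4863, 8276 and 8303 in *Ctl* mice. The cohorts overlapped over nearly their whole ranges, with *Smad4del* mouse A5447 lowest of all. The remaining carriers lay near 0: the log2 fold change was 0.04 for *Trf* (the iron carrier transferrin), 0.05 for *Hpx* (the heme carrier hemopexin) and -0.18 for *Rbp4* (the retinol carrier), none called. The median of the 10 carrier genes was 0.10.

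**Figure D2:**
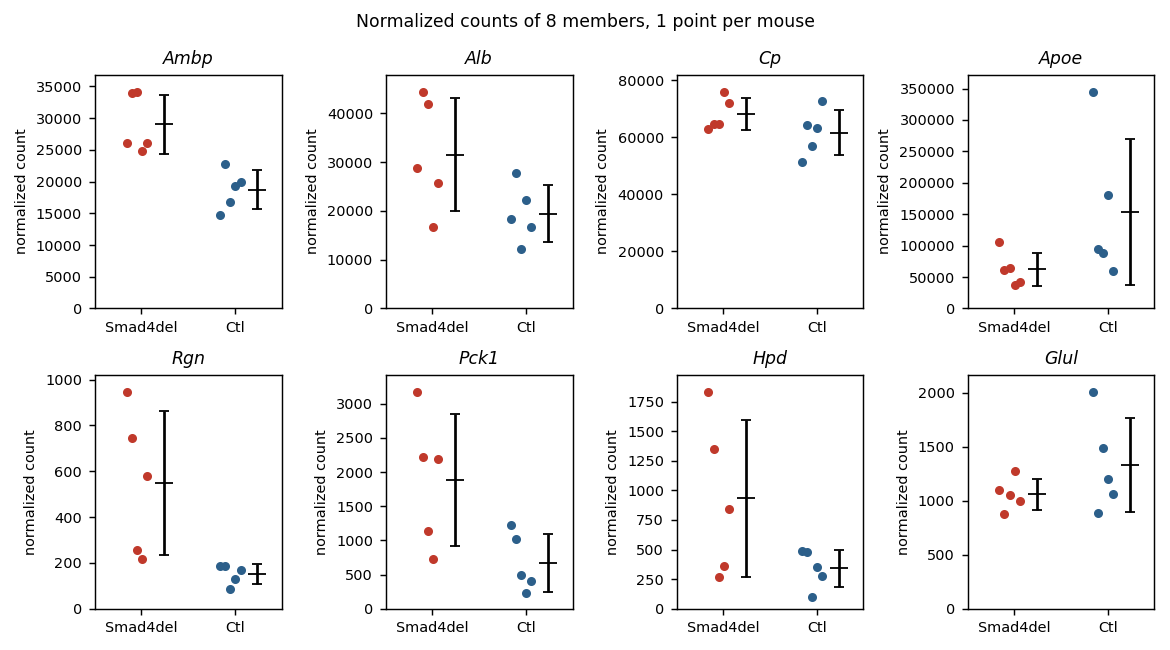
Normalized counts (y axis, from 0) of 8 genes, with 1 point per mouse, *Smad4del* in red left of *Ctl* in blue, and the mean ± SD of 5 mice in black. For *Ambp* and *Rgn* every red point is above every blue one; for *Alb*, *Pck1* and *Hpd* some red points lie among the blue, *Cp* and *Glul* overlap, and *Apoe* has its 2 highest values in *Ctl* mice (344786 and 180661).

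*Apoe* stood at the low end of the apolipoproteins. Its protein carries lipids and is made by hepatocytes and also by macrophages. It had 105289, 60616, 63702, 37905 and 42786 normalized counts in *Smad4del* mice and 344786, 94395, 87771, 180661 and 60301 in *Ctl* mice. *Ctl* mice A5215 and A5626 were far above the rest, *Smad4del* mouse A5216 came next, and the cohorts overlapped, with a log2 fold change of -1.11 ± 0.43 (SE), adjusted p = 0.124 with limma. The macrophage and leukocyte markers followed the same mice: their mean log2 level was 11.62, 9.22, 9.46, 6.94 and 7.36 in *Smad4del* mice and 13.56, 11.04, 10.98, 12.39 and 8.77 in *Ctl* mice. *Ptprc*, the gene of the CD45 protein used to sort leukocytes out, had 1176, 137, 238, 55.3 and 54.3 normalized counts in *Smad4del* mice and 2719, 628, 526, 1249.5 and 94.4 in *Ctl* mice. Both were highest in A5215, A5626 and A5216, as *Apoe* was, and their part in the *Apoe* values was not tested. Without *Apoe*, the 27 other plasma protein genes took 1.26% to 1.53% of the counts in *Smad4del* mice and 0.994% to 1.35% in *Ctl* mice.

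The other apolipoprotein genes were not called in either direction. *Apoc3*, an inhibitor of lipoprotein lipase, was at 254 to 1024 counts in *Smad4del* and 146 to 691 in *Ctl* mice, and its log2 fold change, 0.75 ± 0.47 (SE), adjusted p = 0.321, was the largest of the plasma protein genes. *Apoa2*, a protein of high-density lipoprotein, followed with 0.73 ± 0.49 (SE), adjusted p = 0.352. *Apob*, the scaffold of very low-density lipoprotein, was at 1952 to 3532 counts in *Smad4del* mice and 1398 to 3566 in *Ctl* mice (log2 fold change 0.26). *Apoa1*, the main protein of high-density lipoprotein, *Apoc1* and the phospholipid-binding *Apoh* were at log2 fold changes of 0.18, 0.06 and -0.09. *Apoc3* and *Apoa2* were both lowest in mice A5447, A5221 and A5628, the 3 mice with *Xist*, and with *Xist* as a term their log2 fold changes were 0.43 and 0.39.

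Of the 6 clotting and kinin genes, 5 had a log2 fold change below 0, with a median of -0.28. Limma, edgeR and DESeq2 each called 0 of them, and 1 (*Plg*) was above 0 at an unadjusted p under 0.05. *Fga* encodes 1 of the 3 chains of fibrinogen and had 6753, 6959, 7092, 7562 and 6321 normalized counts in *Smad4del* mice and 9334, 8569, 5258, 7681 and 8700.3 in *Ctl* mice. *Ctl* mice lay above every *Smad4del* mouse in 4 of 5 cases, while *Ctl* mouse A5221 was lowest of all (-0.16 ± 0.14 (SE), adjusted p = 0.465). *Fgg*, a second fibrinogen chain, had 3663, 4437, 4573, 4948 and 3974 normalized counts in *Smad4del* mice and 5153, 5178, 3469, 4665 and 4996 in *Ctl* mice. It ranged only 1.49-fold over the mice, and A5221 was again lowest (-0.11 ± 0.12 (SE), adjusted p = 0.582). For *Fgb*, the chain that completes fibrinogen, the log2 fold change was -0.40 ± 0.21 (SE), adjusted p = 0.233. Left out, A5221 turned *Fgb* into a called gene (-0.59), as leaving out A5215 did for *Gc* (-0.35). *F2*, the gene of prothrombin, was at -0.53 and *Kng1*, the kinin precursor, at -0.61; *Kng1* has a near-identical copy, *Kng2*, and its counts are uncertain. *Plg*, which encodes the fibrin-cutting plasminogen, was the one above 0, at 0.57 ± 0.25 (SE), adjusted p = 0.163 with limma.

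Of the inter-alpha-trypsin inhibitor heavy chains, some of which are joined to bikunin in plasma, *Itih2* had the most counts, 3563, 4492, 5322, 3123 and 4329 normalized counts in *Smad4del* mice and 3485, 3657, 3139, 3652 and 3987 in *Ctl* mice. Mice A5217, A5218 and A5624 lay above every *Ctl* mouse but A5447 below them (0.20 ± 0.13 (SE), adjusted p = 0.356). *Itih3* was at 146 to 498 counts in *Smad4del* mice and 313 to 1148 in *Ctl* mice, with a log2 fold change of -1.01 ± 0.39 (SE), adjusted p = 0.125 with limma. *Itih1* and *Itih4* were at 0.01 and 0.02, and *Vtn*, the gene of the adhesion protein vitronectin, at -0.13. The 5 genes had a median of 0.01. *Ambp* and the heavy chain genes stood at different values, 0.63 against -1.01 to 0.20, and the difference between them was not tested.

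Among the enzyme genes, *Rgn* was the only one that limma called. It encodes regucalcin, a calcium-binding lactonase that hepatocytes make in quantity. It had 946, 744, 257, 218 and 579 normalized counts in *Smad4del* mice and 187, 188, 85.1, 128 and 169.9 in *Ctl* mice. All 5 *Smad4del* mice lay above all 5 *Ctl* mice, with A5218 and A5447 just above them and A5216 and A5217 well above. The log2 fold change was 1.68 ± 0.40 (SE), adjusted p = 0.0304 with limma. The exact two-sided permutation test gave p = 0.00794, the smallest possible, which again only restates the lack of overlap. The call was lost without *Smad4del* mouse A5217 (1.52, adjusted p = 0.0817) or A5624 (1.61, adjusted p = 0.0662), and without *Ctl* mouse A5221 (1.49, adjusted p = 0.0709) or A5626 (1.64, adjusted p = 0.0610), in each case with limma.

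Tyrosine is broken down by *Tat*, *Hpd*, *Hgd* and *Fah* in that order. *Tat*, tyrosine aminotransferase, had 2816, 3348, 1282, 1124 and 2147 normalized counts in *Smad4del* mice and 1628, 1216, 803, 1026 and 1257 in *Ctl* mice. Mice A5216, A5217 and A5624 lay above every *Ctl* mouse, and A5218 and A5447 among them (0.77 ± 0.30 (SE), adjusted p = 0.125). *Hpd*, the dioxygenase of the next step, had 1829.8, 1351, 271, 361 and 847 normalized counts in *Smad4del* mice and 488, 479, 101, 357 and 279.8 in *Ctl* mice. The same 3 mice were above every *Ctl* mouse and A5218 was below 4 of the 5, so that the highest and the lowest mouse differed 18.1-fold and the log2 fold change had a wide error (1.28 ± 0.56 (SE), adjusted p = 0.163). *Hgd*, homogentisate dioxygenase, had 931, 932, 263, 117 and 573 normalized counts in *Smad4del* mice and 231, 222, 116, 128 and 119 in *Ctl* mice. Here 4 *Smad4del* mice were above every *Ctl* mouse and A5447 was second lowest of all (1.48 ± 0.52 (SE), adjusted p = 0.0992). *Fah*, which makes the final cut to fumarate and acetoacetate, varied least of the 4 and its log2 fold change was 0.28 ± 0.17 (SE), adjusted p = 0.301 with limma.

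*Tdo2*, the first enzyme of tryptophan breakdown, was at 218 to 1024 counts in *Smad4del* mice and 87.7 to 657 in *Ctl* mice, a log2 fold change of 1.45 ± 0.58 (SE), adjusted p = 0.134 with limma. *Sds*, serine dehydratase, was at 0.75 ± 0.38 (SE). *Hal*, histidine ammonia-lyase, had 615, 282, 74.0, 78.3 and 170.2 normalized counts in *Smad4del* mice and 645, 178, 183, 206 and 129 in *Ctl* mice. It was 1 of the 2 enzyme genes below 0, and *Ctl* mouse A5215 and *Smad4del* mouse A5216 were far above the rest and A5218 and A5447 were lowest of all (-0.34 ± 0.59 (SE), adjusted p = 0.745). The 7 genes for breakdown of these 4 amino acids had a median log2 fold change of 0.77, with 0 called by limma or edgeR, 2 called higher by DESeq2 and 4 higher at an unadjusted p under 0.05.

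The 3 gluconeogenesis genes had the highest median of the groups, 1.36. Limma and edgeR called 0 of them, DESeq2 called 2 higher, and 2 were higher at an unadjusted p under 0.05. *Pck1*, which makes phosphoenolpyruvate from oxaloacetate, had 3169, 2220.2, 1131, 735 and 2188 normalized counts in *Smad4del* mice and 1225, 1020.0, 488, 232 and 412 in *Ctl* mice. Mice A5216, A5217 and A5624 were above every *Ctl* mouse, and *Ctl* mice A5626 and A5628 were lowest of all (1.55 ± 0.48 (SE), adjusted p = 0.0690). With a term for the range of mouse numbers limma called it higher (adjusted p = 0.0392), as it did with sample weights (0.0307) and without A5447 (0.0357) or A5215 (0.0498). *Fbp1*, the fructose bisphosphatase of the pathway, had 1377, 2704, 704, 539 and 1446 normalized counts in *Smad4del* mice and 426, 670.1, 246, 505 and 521 in *Ctl* mice. All *Smad4del* mice but A5447 lay above every *Ctl* mouse (1.36 ± 0.40 (SE), adjusted p = 0.0603). *G6pc*, which releases free glucose from glucose 6-phosphate, was at 27.6 to 57.9 counts in *Smad4del* mice and 5.44 to 43.3 in *Ctl* mice, by far the least of the enzymes (0.84 ± 0.59 (SE), adjusted p = 0.376).

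The 3 methionine enzymes were above 0 as well, with a median of 0.84, 0 called by limma, edgeR or DESeq2 and 1 (*Bhmt*) at an unadjusted p under 0.05. *Mat1a*, which makes S-adenosylmethionine, had 6564, 3341, 1528, 2028 and 3638 normalized counts in *Smad4del* mice and 3137, 2424, 946, 1291 and 1433 in *Ctl* mice. The same 3 mice, A5216, A5217 and A5624, were above every *Ctl* mouse (0.84 ± 0.40 (SE), adjusted p = 0.195). *Bhmt*, which remakes methionine from homocysteine with betaine, was at 1.15 ± 0.46 (SE), adjusted p = 0.137, and *Gnmt*, which spends the methyl donor on glycine, at 0.75 ± 0.50 (SE), adjusted p = 0.349, both with limma. *Glul*, the glutamine synthetase of pericentral hepatocytes, had 1100.0, 874, 1049.7, 1271 and 993 normalized counts in *Smad4del* mice and 2004, 890.1, 1489, 1197 and 1061 in *Ctl* mice. It was the other enzyme gene below 0: *Ctl* mice A5215 and A5221 were above every *Smad4del* mouse and the log2 fold change was -0.28 ± 0.19 (SE), adjusted p = 0.369. The receptor genes had few counts. *Asgr1* had 234, 214, 45.6, 30.4 and 109.6 normalized counts in *Smad4del* mice and 89.2, 100.2, 56.4, 148 and 49.96 in *Ctl* mice. Mice A5216 and A5217 were above and A5218 and A5447 below every *Ctl* mouse (0.21 ± 0.56 (SE), adjusted p = 0.843). *Asgr2* had 13.5, 31.9, 9.13, 18.4 and 13.6 normalized counts in *Smad4del* mice and 20.7, 22.1, 0.925, 36.4 and 3.33 in *Ctl* mice, of which the 0.925 of A5221 is 1 read, and its log2 fold change was 0.63 ± 0.81 (SE), adjusted p = 0.652 with limma.

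**Figure D3:**
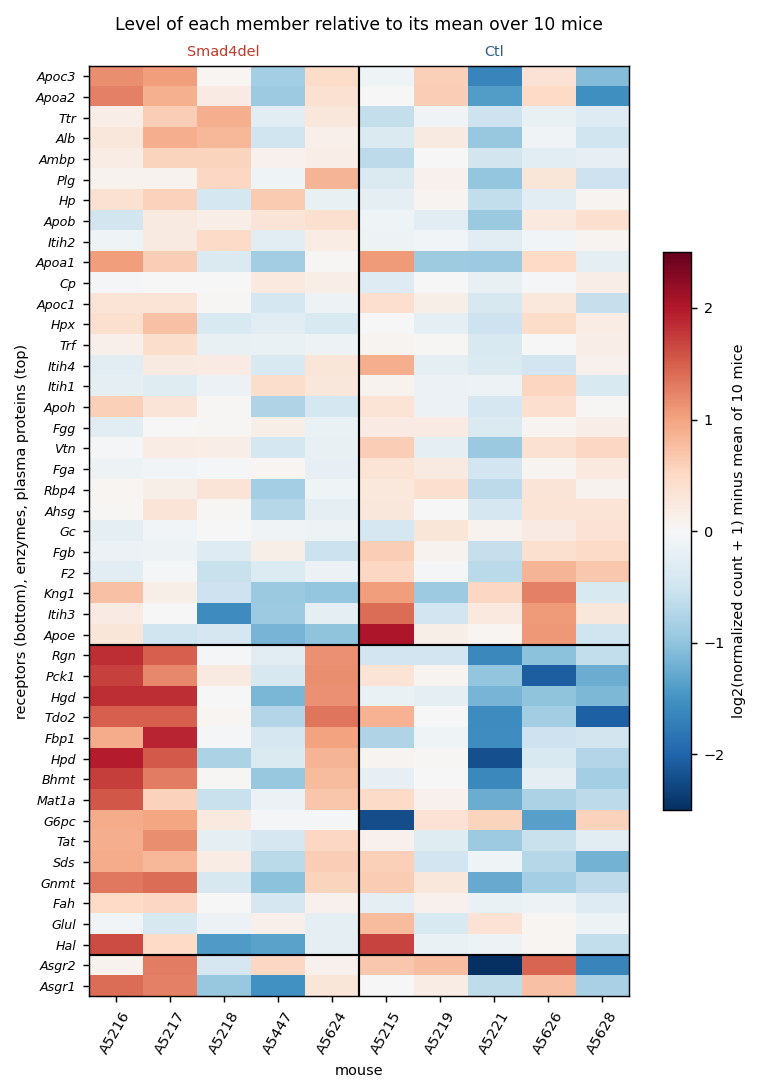
Log2(normalized count + 1) of each gene minus its mean over the 10 mice (color, red above and blue below), with mice in columns (*Smad4del* left, *Ctl* right) and genes in rows, plasma protein genes above, enzyme genes in the middle and receptor genes below. A5216, A5217 and A5624 are red over most enzyme genes, and A5447, A5221, A5626 and A5628 are blue over most of them. Over the plasma protein genes A5221 and A5447 are mostly pale blue, being among the 3 lowest mice in 23 and 16 of 28 genes.

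Among the 45 genes, the enzyme genes varied more between mice of one cohort than the plasma protein genes did. The within-cohort SD on the log2 scale had a median of 0.88 over the 15 enzyme genes and 0.44 over the 28 plasma protein genes, beside 0.30 over all genes tested. The ratio of the highest to the lowest mouse had a median of 8.72 for enzyme genes and 2.49 for plasma protein genes. Enzyme genes had fewer counts, so genes with a mean of 100 to 3000 were set side by side: the median SD was 0.82 for 14 enzyme genes, 0.46 for 13 plasma protein genes and 0.25 for all 10297 genes in that range. In the lists of 40 other genes each, described below, the order was the other way. There the median SD was 0.84 for other plasma protein genes and 0.485 for other hepatocyte enzyme genes. The median ratio of the highest to the lowest mouse was 6.26 and 3.38. These medians are descriptions, since genes of one list share mice.

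Most enzyme genes put the mice in a similar order, which plasma protein genes shared only in part. A5216, A5217 and A5624 were the 3 highest mice in 10 of 15 enzyme genes and in 0 of 28 plasma protein genes. These 3 had the highest mean enzyme level, so this comparison is not an independent one. A list of 40 other plasma protein genes, described below, put the *Smad4del* mice in the order of the enzyme genes. Its mean log2 level was 7.14, 6.96, 6.26, 5.72 and 6.76 in *Smad4del* mice and 7.06, 6.68, 5.90, 6.93 and 6.38 in *Ctl* mice. A5216 or A5217 was highest in 13 enzyme genes and in 6 plasma protein genes. *Ctl* mouse A5221 was lowest in 8 enzyme and 13 plasma protein genes, and A5215 was highest in 2 enzyme and 8 plasma protein genes. The mean log2 level of the 15 enzyme genes was 10.17, 9.98, 8.70, 8.34 and 9.52 in *Smad4del* mice and 8.99, 8.81, 7.98, 8.20 and 8.20 in *Ctl* mice. A5216, A5217 and A5624 were above every *Ctl* mouse, and A5218 and A5447 within the *Ctl* range. For the plasma protein genes the level was 11.76, 11.85, 11.56, 11.25 and 11.52 in *Smad4del* mice and 11.82, 11.56, 11.07, 11.87 and 11.51 in *Ctl* mice, and the cohorts overlapped fully. Enzyme level minus plasma protein level was -1.59, -1.87, -2.86, -2.91 and -2.0 in *Smad4del* mice and -2.83, -2.75, -3.08, -3.68 and -3.31 in *Ctl* mice, so that the same 3 *Smad4del* mice stood above all *Ctl* mice and the other two among them. The lists were chosen with these data known, so no p-value is given. Within each cohort the mice with *Xist* were low for the enzymes: A5447 was lowest of the *Smad4del* mice, and A5221 was lowest and A5628 level with A5626 among the *Ctl* mice. *Ctl* mouse A5626, without *Xist*, was among the 3 lowest in 9 enzyme genes and A5447 in 8. With *Xist* as a term, 12 of the 13 enzyme genes above 0 had a smaller log2 fold change (*Tdo2* 1.09, *Hgd* 1.21, *Hpd* 1.02) and *G6pc* a larger one, with a median change of -0.18 per gene over the 15 enzyme genes. Over the 7 mice without *Xist*, 5 of the 13 were smaller and 8 larger. The median log2 fold change of the 15 enzyme genes was 0.84 without the term, 0.87 with it and 0.99 over these 7 mice. The part of *Xist* status in the mouse order was not tested.

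**Figure D4:**
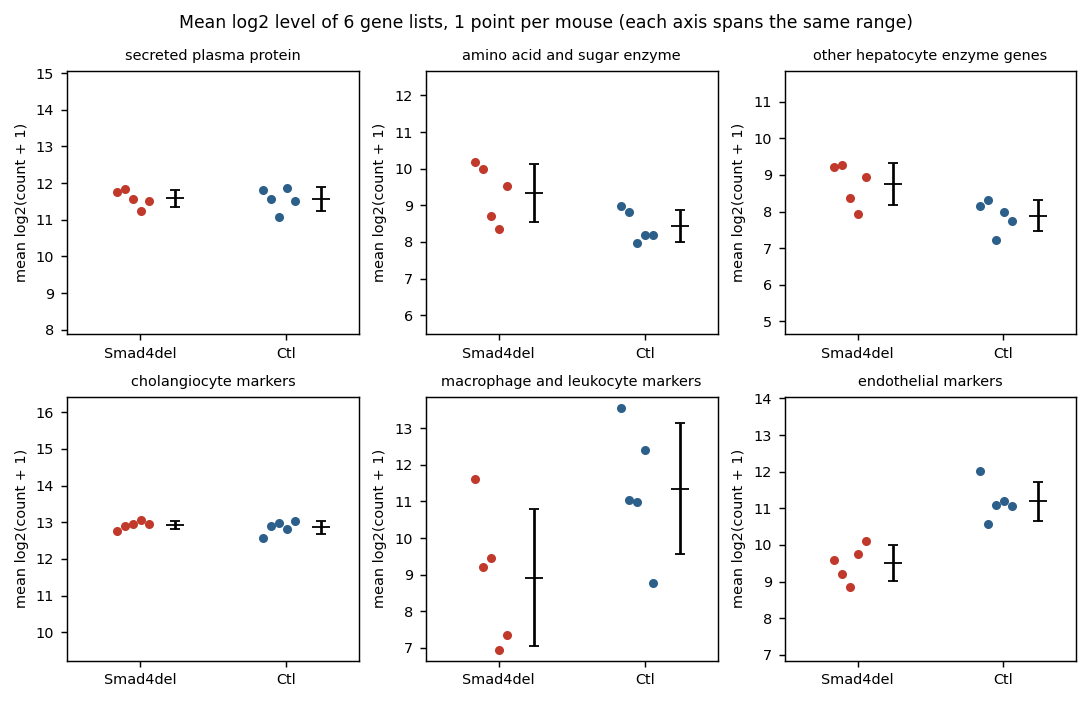
Mean log2(normalized count + 1) of 6 gene lists (y axes, each spanning the same range), with 1 point per mouse, *Smad4del* in red left of *Ctl* in blue, and the mean ± SD of 5 mice in black. Plasma protein genes (11.25 to 11.85 in *Smad4del* mice, 11.07 to 11.87 in *Ctl* mice) and cholangiocyte markers overlap, as do macrophage markers (6.94 to 11.62 and 8.77 to 13.56), both enzyme lists reach higher in *Smad4del* mice, and endothelial markers are lower in every *Smad4del* mouse than in every *Ctl* mouse.

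Levels of different genes were compared per kb of exon, with lengths from GENCODE M21. By mean over the 10 mice, *Apoe* came first with 50431 counts per kb, followed by *Gc* with 24661, *Ambp* with 16943, *Alb* with 10873, *Hp* with 8796, *Cp* with 6772 and *Ttr* with 4854. The enzyme genes lay far below, *Mat1a* at 759 and *Tat* at 692 leading them and *G6pc* last with 14.2, and *Asgr2* was last of all 45 with 10.8. The 15 enzyme genes together took 0.0460% to 0.150% of all counts in *Smad4del* mice and 0.0344% to 0.0683% in *Ctl* mice. For the 28 plasma protein genes the share was 1.47% to 1.91% in *Smad4del* and 1.49% to 2.74% in *Ctl* mice, the highest of these in A5215, where *Apoe* was highest.

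Beyond the 45 genes, of 40 other hepatocyte enzyme genes, 5 were called higher by limma and 0 lower (DESeq2 called 17 and 1, edgeR 3 and 0, and 21 and 1 had an unadjusted p under 0.05), 35 had a log2 fold change above 0 and the median was 0.68. *Hao1*, the glycolate oxidase of peroxisomes, was at 260 ± 138 counts in *Smad4del* mice and 42.4 ± 20.48 in *Ctl* mice (SD, n = 5 each; log2 fold change 2.56, adjusted p = 0.00850 with limma). *Gpt*, alanine aminotransferase, rose by 0.68 (adjusted p = 0.0265) and *Gys2*, liver glycogen synthase, by 2.28 (adjusted p = 0.0397), both on the log2 scale with limma. The count of 5 depended on single mice: it was 1 without A5217, 2 without A5624, A5221 or A5628 and 3 without A5626. It was 4 without A5216 or A5218, 6 without A5219 and 11 without A5447. Without A5216 or A5219, 1 gene was called lower. Other plasma protein genes, 37 of 40 tested, had 0 called higher by limma, 3 called lower and a median of -0.03 (DESeq2 called 2 and 6, edgeR 0 and 2, and 8 and 10 had an unadjusted p under 0.05). Those lower were *Lrg1*, a leucine-rich acute-phase glycoprotein (-0.62, adjusted p = 0.00375 with limma), *Pros1*, the anticoagulant protein S (-0.82, adjusted p = 0.0111), and *Apoa5*, a modulator of triglyceride clearance (-2.91, adjusted p = 0.0368). The count of 3 lower became 2 without A5217, A5218, A5447, A5624, A5215, A5626 or A5628. It became 4 without A5219 or A5221 and 5 without A5216. Without A5447, A5219 and A5628, 4, 2 and 1 genes were called higher.

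Of 18 hepatocyte transcription factor genes, 1 was called, *Onecut1*, also a bile duct regulator, at 0.62 (adjusted p = 0.0413 with limma), and it was not called without A5217, A5218, A5447, A5624, A5215, A5219, A5221 or A5626. DESeq2 called 2 higher and 2 lower and edgeR 1 and 0, 6 and 2 had an unadjusted p under 0.05, 16 had a log2 fold change above 0 and the median was 0.26. *Hnf4a* had 2447, 2985, 2639.9, 2739.5 and 3749 normalized counts in *Smad4del* mice and 1937, 3111, 2596, 2090.5 and 2929.7 in *Ctl* mice. The cohorts overlapped, with *Smad4del* mouse A5624 highest (0.21 ± 0.15 (SE), adjusted p = 0.393). Of 12 periportal genes, 0 were called by limma (1 without A5218 or A5215 and 3 without A5447), DESeq2 called 4 and edgeR 0 higher, 5 were higher at an unadjusted p under 0.05 and the median was 0.79. The periportal list is not a separate set. It includes the enzyme genes *Hal*, *Sds*, *Pck1*, *G6pc* and *Fbp1* studied above and the cholangiocyte marker *Cdh1*. *Gls2* and *Apof* are also in the lists of other enzyme and other plasma protein genes. The median and calls of the periportal list therefore repeat in part what was given for those genes. Of 12 pericentral genes, 9 were tested, *Rgn* alone was called (not without A5217, A5624, A5221 or A5626, and 1 gene was lower without A5216 or A5219) and the median was -0.24, which turned to 0.47 without A5626 and 0.15 without A5218. DESeq2 called 1 higher and 1 lower, edgeR 1 and 0, and 1 and 1 had an unadjusted p under 0.05. *Rgn* and *Glul* are also among the enzyme genes studied above, and *Oat* is in the list of other hepatocyte enzyme genes. The call of *Rgn* here is therefore not a further one. Among the 18 cholangiocyte markers, 3 were higher (*Muc1*, *Krt19* and *Onecut1*), 2 were lower (*Aqp1* and *Sctr*) and the median was 0.17 (DESeq2 called 6 and 2, edgeR 3 and 2, and 7 and 2 had an unadjusted p under 0.05). The 3 higher became 0 without A5218, 1 without A5217, A5215 or A5626 and 2 without A5447, A5624, A5221 or A5628. The 2 lower became 3 without A5447. *Krt19* had 27218, 28149, 32452, 37872 and 25266 normalized counts in *Smad4del* mice and 17234, 23376, 22906, 20138 and 20344 in *Ctl* mice. All *Smad4del* mice were above all *Ctl* mice (0.53 ± 0.12 (SE), adjusted p = 0.0270). *Epcam*, the gene of the protein used for sorting, was at 0.14 (adjusted p = 0.484 with limma). Stellate and fibroblast markers had 2 of 12 called lower (*Dcn* and *Acta2*; 1 without A5217 and 4 without A5626) and a median of -0.88, with 6 called lower by DESeq2, 2 by edgeR and 7 lower at an unadjusted p under 0.05. All 16 macrophage and leukocyte markers lay below 0, with a median of -2.47 and 0 called by limma, edgeR or DESeq2 (with limma 4 without A5216 and 1 without A5628), 15 of them at an unadjusted p under 0.05. Of 8 erythroid markers, 5 were tested, 0 were called by limma, edgeR or DESeq2, 0 had an unadjusted p under 0.05, and *Slc4a1*, the anion exchanger of red cells, was at 0 in all 10 mice.

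Of the count-based tests, DESeq2 gave more calls among the 45 genes than limma, and edgeR gave the same 2. DESeq2 on the reads recovered from the values called 6.01% of all genes higher and 8.68% lower, and of the 45 it called 7 higher, namely *Ambp* and *Ttr* among the plasma protein genes and *Rgn*, *Tat*, *Hgd*, *Pck1* and *Fbp1* among the enzyme genes, and 1 lower, *Itih3*. Without A5217, whose reads could be recovered with less certainty, *Ttr*, *Ambp*, *Hgd*, *Fbp1* and *Rgn* were called higher and *Itih3* lower. The edgeR quasi-likelihood test called *Ambp* and *Rgn* alone, beside 313 of all 14870 genes higher and 598 lower. Without A5217 it called 0 of the 45, beside 89 of all genes higher and 265 lower. The mice fall in 2 ranges of numbers, A5215 to A5221 and A5447 to A5628, with 3 *Smad4del* and 3 *Ctl* mice in the first and 2 of each in the second. Within them the log2 fold change of *Ambp* was 0.81 and 0.37, and that of *Rgn* 1.96 and 1.26, and 0 of the 45 genes were called within either. With the range as a term over all 10 mice, 3 of the 45 were called higher, *Ambp*, *Rgn* and *Pck1*, and 0 lower. Of all genes, 395 were then called higher and 727 lower. *Pck1* was at 1.23 and 2.03, *Alb* at 1.04 and 0.11 and *Apoe* at -0.94 and -1.37. With *Xist* as a term, *Ambp* (0.61, adjusted p = 0.0268) and *Rgn* (1.52, adjusted p = 0.0315) were called higher and *Apoe* lower (-1.33, adjusted p = 0.0384) with limma, and over the 7 mice without *Xist* 0 of the 45 genes were called, with *Ambp* at 0.68 and *Rgn* at 1.78.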

How the data were processed

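RNA of sorted reactive cholangiocytes was amplified with a SMART-Seq kit and sequenced, 1 library per mouse. The deposited signal values are counts per gene that the authors made with Trimmomatic 0.36, an aligner and featureCounts on GRCm38.p5 (the submitters' processing notes also name mm9) and divided by a DESeq2 1.14.1 size factor for each mouse, uncorrected for gene length. By the methods, counts were made both from uniquely aligned reads and with multi-mapping reads included, and no source used here says which of the sets these values come from. All values were whole multiples of 1 step per mouse (100%, tolerance 1e-06), which gave back the reads; in A5217 the step is 0.998, too close to 1 to tell rounding apart.

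Cohorts came from the labels, and 0 columns were left unmapped. Limma 3.58.1 in R 4.3.3 was fitted over 14870 genes with a mean of at least 10, on log2(value + 1), a scale that understates changes of low genes, with a trended prior and a single term for cohort, and p-values were adjusted by Benjamini-Hochberg and called under 0.05. The replicates are mice, so p-values cover the spread between these mice. Single genes were also tested with an exact permutation test, quoted only where the cohorts do not overlap, which fixes its p-value. Alternatives were other pseudocounts (0.5 and 10), minimum means (none and 50), quantile and median scaling, sample weights, a term for the mouse number range, edgeR 4.0.16 and DESeq2 1.42.0 on recovered reads, and leaving out each mouse. Chosen after seeing the data were the count tests without A5217, fits within number ranges, list counts without each mouse, and a term for *Xist* at 100 counts or above and the 7 mice below it. The fits were tested on simulated data.

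The genes and lists were chosen with earlier results of these data known. Values in every mouse are given for called genes, the 8 genes with the highest mean, the 3 most and 3 least variable, the leading gene of each group and *Alb*, *Hal*, *Glul*, *Tat*, *Hpd*, *Asgr1* and *Hnf4a*; *Ttr*, *Hgd* and *Fbp1* were added after their values were seen. In other lists up to 4 called genes per direction could be named, and some genes are not reported here. Gene lengths come from GENCODE M21 on GRCm38 and promoter windows from RefSeq on GRCm38.p6.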

Additional observations from a re-analysis of the deposited data

Results flagged for a closer look

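In 3 of 90 tests of a cohort of 5 mice for one gene, a single mouse lay far from the other 4 by Dixon's criterion of 0.71, and chance alone gives about 1 in 20. *Apob* had 1952.2 counts in *Smad4del* mouse A5216, where the other 4 *Smad4del* mice had 3009 to 3532. In *Ctl* mouse A5221, *Trf* had 2678.8 counts, against 3519 to 3919 in the other 4 *Ctl* mice, and *Fgg* had 3469.0 counts, against 4665 to 5178. A5221 was the lowest of all mice in 13 of 28 plasma protein genes.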

How the results depend on the processing

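Under 26 other settings, 31 of the 45 genes kept the sign of their log2 fold change, and among the 14 that did not the largest was 0.63 (*Asgr2*) and 1 was an enzyme gene (*Hal*). No called gene changed sign. The median log2 fold change of plasma protein genes stayed between -0.18 and 0.20 and that of enzyme genes between 0.71 and 1.21. Leaving out each mouse in turn gave 0 to 8 of the 45 genes called higher and 0 to 1 lower, and 105 to 563 of all genes higher and 329 to 852 lower; 0 of the 45 were higher without A5217 or A5221, and 8 without A5447. No minimum mean left 209 of all genes called higher. Scaling moved the split of all genes, with 579 higher and 607 lower under quantile scaling and 626 and 639 under median scaling, beside 362 and 697. It called 4 of the 45 genes higher in each case. Sample weights called 6 of the 45 higher, beside 504 of all genes higher and 845 lower. DESeq2 called 894 of all genes higher and 1290 lower, with 7 and 1 of the 45. Without A5217 it called 444 and 939 of all genes, with 5 and 1 of the 45, where edgeR called 89, 265 and 0 of the 45. Within the first number range 12 and 62 of all genes were called and within the second 1 and 36, with 0 of the 45 higher in each. The *Xist* term called 2 of the 45 higher and 1 lower, beside 405 of all genes higher and 812 lower. The 7 mice without *Xist* gave 34 and 105 of all genes and 0 of the 45 higher. Fits within a range or without mice hold fewer mice. No paired analysis was possible because the labels give no replicate numbers that the cohorts share. The term for the mouse number range called 3 of the 45 higher, beside 395 of all genes higher and 727 lower. The within-cohort SD had a median of 0.88 over enzyme genes, of which 8 of 15 had an unadjusted p under 0.05 and 1 passed the adjustment over all genes.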
